A study of Mus musculus with 7 samples.

Results

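All rows of the adipocyte count table whose chromosome was given as MT, the mitochondrial chromosome, were analysed, which were 37 of 57010 gene identifiers. They comprise 13 protein-coding genes, 2 rRNA genes and 22 tRNA genes, and the rule that chose them uses the chromosome alone. The libraries come from mature white adipocytes freed by collagenase from the perigonadal fat of male mice, 20 weeks old and kept on Teklad LM-485 chow with no treatment. The 3 control libraries, FFA2 fl/fl, carry the floxed FFA2 allele without Cre. The 4 Adipoq-F2-KO libraries carry the same floxed allele and an Adiponectin-Cre transgene, whose promoter is active in fat cells, so that other cell types left in the preparation would keep the receptor. The mice were co-housed littermates. No group carries Cre without the floxed allele, so the transgene and the loss of FFA2 cannot be told apart. The labels do not say whether a library holds 1 mouse or several, and the p-values measure only the spread between these samples.

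The mitochondrial genome is a small circle copied and transcribed inside the organelle. Both strands are read as long RNAs, and the tRNAs that lie between most of the larger genes are cut out to release the mRNAs and the rRNAs. Its proteins are core subunits of complexes I, III, IV and V of oxidative phosphorylation (OXPHOS), the chain that makes ATP in the inner membrane, and its 2 rRNAs form the core of the mitochondrial ribosome. All other subunits, and every enzyme that copies, transcribes, trims and translates the mitochondrial genome, are encoded in the nucleus. The libraries were made by poly-A selection, which favours the mitochondrial mRNAs, most of which end in short tails of A, over rRNA and tRNA. The mRNA of mt-Nd6 is known to lack such a tail. Levels of the 3 classes are therefore not comparable with one another in these data, and only differences between genotypes within a class are described as such.

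Library totals ran from 30478997 to 39992605 counts. The targeted gene Ffar2, which encodes FFA2, had 1404, 1346 and 1094 counts in FFA2 fl/fl, compared with 67, 38, 48 and 76 in Adipoq-F2-KO, a log2 fold change of -4.36 ± 0.22 (SE) with an adjusted p of 7.97e-06 by edgeR. Across all 17039 genes tested, 173 passed an adjusted p of 0.05 by edgeR, or 1.02%, of which 136 (0.798%) were higher and 37 (0.217%) lower in Adipoq-F2-KO. The median log2 fold change of all tested genes was 0.0037. The adipocyte identity of the samples was checked with 15 fat cell marker genes. All 15 were expressed, at a summed 46997 to 67228 normalized CPM (counts scaled to a common library size) per library.

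Mitochondrial transcripts made up a larger share of the counts in each of the 4 Adipoq-F2-KO libraries than in any control. The share was 4.41%, 5.77% and 4.98% in FFA2 fl/fl and 7.82%, 6.61%, 9.24% and 10.3% in the knockout. The means were 5.05% ± 0.681 (SD, n = 3) and 8.48% ± 1.61 (SD, n = 4), a 1.68-fold difference. The difference of 3.43 percentage points exceeded the SD of either genotype. The lowest knockout library, Adipoq-F2-KO 2, lay 0.836 percentage points above the highest control, FFA2 fl/fl 2. In bulk samples such as these, a change in the make-up of the cells and a change of RNA within each cell cannot be told apart.

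The 13 protein-coding genes carried most of this difference. Their share was 4.17%, 5.37% and 4.81% in the controls and 7.25%, 6.05%, 8.81% and 9.14% in Adipoq-F2-KO, with means of 4.78% ± 0.602 and 7.81% ± 1.43 (SD) and a 1.63-fold difference. The rRNA share was 0.237%, 0.388% and 0.163% in FFA2 fl/fl, compared with 0.558%, 0.540%, 0.418% and 1.11% in Adipoq-F2-KO, with means of 0.263% ± 0.115 and 0.657% ± 0.311, a 2.50-fold difference. Both shares separated the genotypes without overlap, but the rRNA groups came within 0.029 percentage points of each other, and without Adipoq-F2-KO 4 the difference between their means was 0.242 percentage points, against 0.394 with it. The 22 tRNA genes held 0.00968% to 0.0116% in FFA2 fl/fl and 0.0141% to 0.0179% in the knockout, nearly all of it from mt-Tp.

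**Figure D1:**
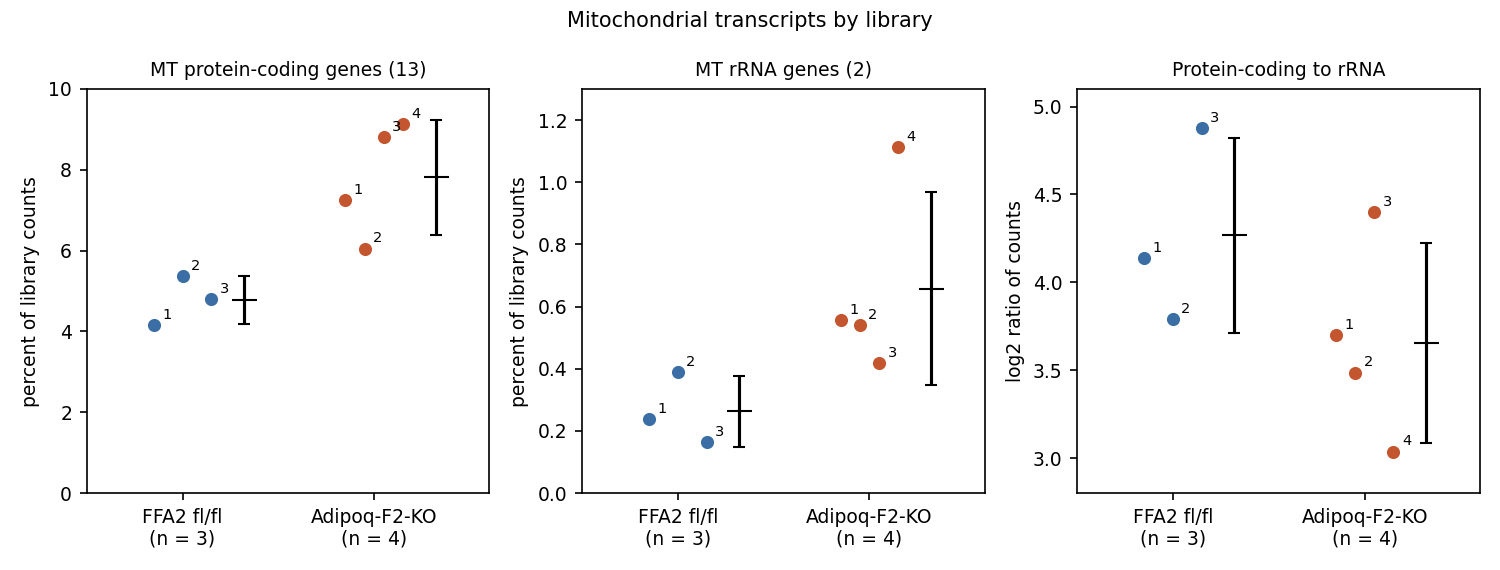
Share of each library's counts in the 13 MT protein-coding genes (left), in the 2 MT rRNA genes (middle) and the log2 ratio of the first to the second (right, axis not starting at 0). Points are libraries numbered within genotype, and bars are the mean ± SD for FFA2 fl/fl (n = 3) and Adipoq-F2-KO (n = 4). Both shares were higher in all 4 Adipoq-F2-KO libraries, whereas the ratios of the genotypes overlapped.

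Protein-coding and rRNA transcripts were then set against each other within each library. There were 17.6, 13.8 and 29.4 protein-coding counts per rRNA count in the controls and 13, 11.2, 21.1 and 8.21 in Adipoq-F2-KO. On the log2 scale the ratio averaged 4.27 ± 0.56 (SD, n = 3) in FFA2 fl/fl and 3.66 ± 0.57 (SD, n = 4) in Adipoq-F2-KO. The difference of -0.61 was close in size to the spread within each genotype, and the libraries of the genotypes interleaved. A larger change of rRNA than of mRNA was therefore not resolved with these libraries. The difference stayed negative in each of the 7 sets that left out 1 library, from -0.86 without Adipoq-F2-KO 3 to -0.31 without FFA2 fl/fl 3, and it was -0.41 without Adipoq-F2-KO 4. It was -0.65 when medians of counts per kilobase replaced the sums.

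Of the 37 mitochondrial genes, 17 had enough counts for testing. One of these, mt-Ts1, passed the count filter only through its Adipoq-F2-KO libraries, so that its direction was fixed by the filter, and it is left out of the counts of direction. The other 16 all had a log2 fold change above 0, against 50.4% of all tested genes. All 16 also had an unadjusted p under 0.05 with the higher level in Adipoq-F2-KO, against 10.5% of all genes. Genes transcribed together and read from the same libraries are not independent observations. After adjustment over all genes, 3 were called by edgeR, namely mt-Nd1, mt-Nd2 and mt-Tp, all higher in Adipoq-F2-KO, and none lower. The other 13 had adjusted p-values from 0.0556 for mt-Cytb to 0.196 for mt-Nd3. In 12 of the 16 every Adipoq-F2-KO library exceeded every control, against 8.86% of all tested genes. The 4 that overlapped were mt-Rnr2, mt-Co2, mt-Co3 and mt-Nd3.

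**Figure D2:**
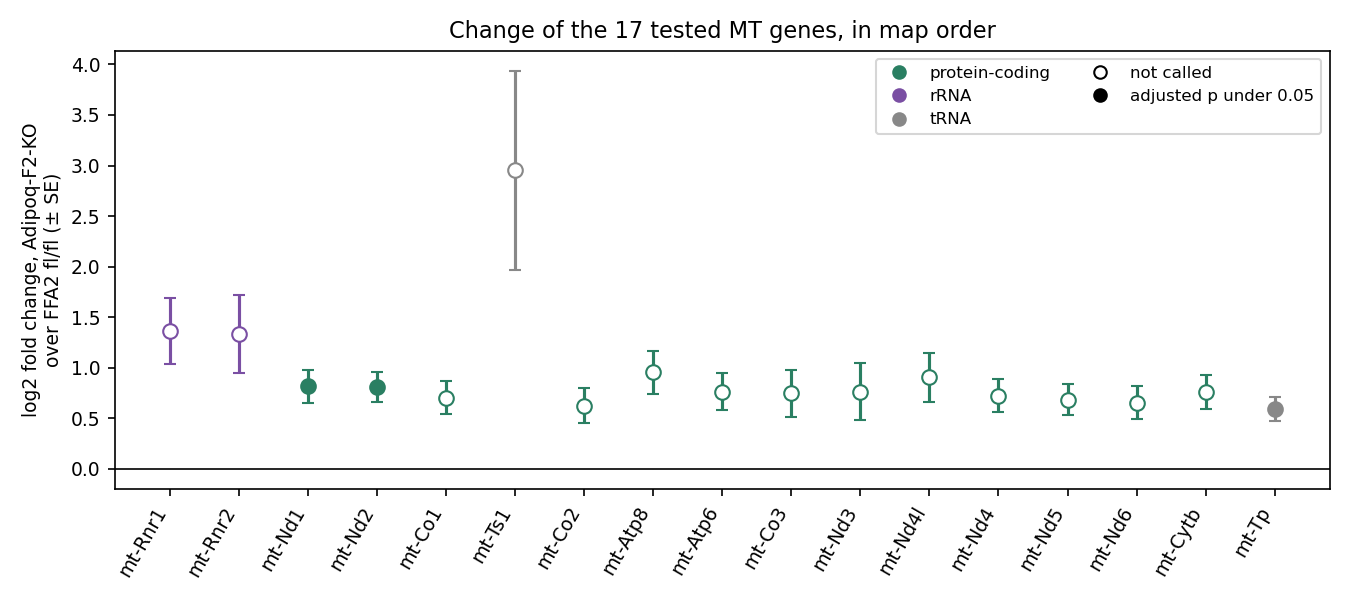
Log2 fold change (Adipoq-F2-KO over FFA2 fl/fl) of the 17 tested MT genes in map order, with bars of ± 1 SE from edgeR. Filled points passed an adjusted p of 0.05. All 13 protein-coding genes lie between 0.62 and 0.95, and both rRNAs lie above 1.3.

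The 3 calls did not withstand the loss of single libraries. With edgeR refitted on 6 libraries, no mitochondrial gene was called without FFA2 fl/fl 1, 2 or 3, or without Adipoq-F2-KO 2 or 3. In those fits, in that order, the calls over all genes were few as well, at 0.0056%, 0.23%, 0.0278%, 0.0661% and 0.12% of the genes tested. At an unadjusted p under 0.05, 15, 16, 15, 16 and 15 of the 16 mitochondrial genes were higher, against 7.55%, 10.5%, 8.6%, 9.82% and 11.3% of all genes. Without Adipoq-F2-KO 1, mt-Nd2 and mt-Tp were called, where 1.07% of all genes were. Without Adipoq-F2-KO 4, mt-Nd1, mt-Nd2 and mt-Atp8 were called, where 0.997% of all genes were. Other tools and filters called more. DESeq2 called 11 of the 17, against 6.75% of all genes given an adjusted p, which mt-Ts1 was not. With limma voom 7 were called, against 1.22%, and edgeR with all genes of at least 1 count called 16, against 4.92%. The log2 fold changes of the 16 genes stayed above 0 in each of the 7 refits. That of mt-Nd2 ran from 0.72 to 0.92 and that of mt-Nd1 from 0.70 to 0.93, whereas mt-Nd3 ran from 0.42 to 0.96 and mt-Co3 from 0.46 to 0.92, both lowest without Adipoq-F2-KO 3.

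Among the 7 subunits of complex I, the NADH dehydrogenase that feeds electrons into the chain, mt-Nd2 had the smallest p. Its normalized CPM was 3137, 3905 and 3498 in FFA2 fl/fl, compared with 5750, 4779, 6844 and 7255 in Adipoq-F2-KO, with a log2 fold change of 0.81 ± 0.15 (SE) and an adjusted p of 0.0383 by edgeR. mt-Nd1 read 3526, 4535 and 3941 CPM in FFA2 fl/fl and 6333, 5353, 7810 and 8694 in the knockout, a log2 fold change of 0.82 ± 0.16 with an adjusted p of 0.0458. The control and knockout libraries of both genes were separated by a gap, and Adipoq-F2-KO 2 was the lowest knockout library each time. mt-Nd5, at 0.705% of counts in the controls and 1.11% in Adipoq-F2-KO, had a log2 fold change of 0.68 (adjusted p = 0.0577). mt-Nd4 had the same adjusted p of 0.0577 at 0.72. mt-Nd6 is the one mRNA of the minus strand and is transcribed in the direction opposite to mt-Nd5. Its CPM was 1433, 1833 and 1700 against 2237, 2044, 3121 and 3034, a log2 fold change of 0.66 (adjusted p = 0.0737), and the log2 ratio of mt-Nd6 to its neighbour mt-Nd5 was -2.08 ± 0.013 in the controls and -2.11 ± 0.11 in Adipoq-F2-KO. The groups overlapped in that ratio, so no shift in this ratio was seen beyond the spread, although the mt-Nd6 mRNA, without a tail, need not be captured as mt-Nd5 is. The 2 genes share 14 bases on opposite strands, and whether the counting used strand is not given in the sources used here. If it did not, RNA of the plus strand across mt-Nd6 would be counted with that gene. The ratio therefore cannot compare the strands. The short genes mt-Nd4l and mt-Nd3 had log2 fold changes of 0.90 (adjusted p = 0.0987) and 0.76 (adjusted p = 0.196).

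mt-Cytb, the catalytic subunit of complex III and the only one this genome encodes, was among the most abundant transcripts of the adipocytes. It took 1.05%, 1.41% and 1.25% of counts in FFA2 fl/fl, compared with 1.95%, 1.58%, 2.26% and 2.46% in Adipoq-F2-KO, with no overlap, and its log2 fold change was 0.76 ± 0.17 (adjusted p = 0.0556 by edgeR). mt-Co1, the catalytic core of complex IV, the cytochrome c oxidase, took 1.25%, 1.59% and 1.38% in FFA2 fl/fl and 2.09%, 1.71%, 2.64% and 2.56% in the knockout, and its log2 fold change was 0.71 ± 0.16 (adjusted p = 0.0654). These genes ranked 5 and 4 by mean CPM among all tested genes. The other complex IV subunits, mt-Co2 and mt-Co3, had log2 fold changes of 0.62 (adjusted p = 0.104) and 0.75 (adjusted p = 0.142), and their libraries overlapped between genotypes.

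For complex V, the ATP synthase, the proton channel subunit mt-Atp6 had a CPM of 143, 200 and 173 in the controls and 258, 221, 401 and 290 in Adipoq-F2-KO. Its log2 fold change was 0.77 ± 0.19 (adjusted p = 0.0744 by edgeR). mt-Atp8, a small membrane subunit of the same enzyme, had 9.11, 11 and 10.1 CPM against 17, 15, 17.1 and 29.2, a log2 fold change of 0.95 ± 0.22 (adjusted p = 0.0600). Neither gene overlapped between genotypes, and the mt-Atp8 value of Adipoq-F2-KO 4 stood well above the other 3. The reading frames of these genes are known to overlap, and the annotation places their shared 43 bases at MT:7927-7969 (GRCm38, plus strand). mt-Atp8 (MT:7766-7969) is shown whole because the shared bases, in capitals, make up the last part of a short gene, where a fragment can belong to either.
mt-Atp8: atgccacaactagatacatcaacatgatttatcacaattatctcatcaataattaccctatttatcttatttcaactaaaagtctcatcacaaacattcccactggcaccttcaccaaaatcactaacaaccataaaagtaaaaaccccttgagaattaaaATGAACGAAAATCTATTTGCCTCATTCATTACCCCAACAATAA

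The proportions of the complexes among protein-coding counts stayed near each other in the genotypes. Complex I genes held 43% ± 0.599 of these counts in FFA2 fl/fl, compared with 43.2% ± 0.839 in Adipoq-F2-KO (SD, n = 3 and 4). Complex III held 25.9% ± 0.502 and 26.4% ± 0.607, complex IV 30.7% ± 0.758 and 30.0% ± 1.10, and complex V 0.383% ± 0.0110 and 0.395% ± 0.0552. The libraries of the genotypes overlapped for all 4 complexes, and no difference between their means exceeded 0.711 percentage points. The protein-coding genes thus differed between genotypes by similar factors, with a median log2 fold change of 0.76.

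The rRNA genes encode the RNA of the small (mt-Rnr1) and large (mt-Rnr2) mitochondrial ribosomal subunits. mt-Rnr1 had a normalized CPM of 952, 1648 and 787 in FFA2 fl/fl and 2454, 2202, 2075 and 4889 in the knockout, and its log2 fold change was 1.36 ± 0.32 (adjusted p = 0.0675 by edgeR). mt-Rnr2 had 1379, 2264 and 818 against 3104, 3161, 2142 and 6625, and its log2 fold change was 1.34 ± 0.39 (adjusted p = 0.115). Neither passed the test. mt-Rnr1 passed with limma voom (adjusted p = 0.0493), and both passed with edgeR on all genes of at least 1 count (1.94e-10 and 8.84e-09), whereas DESeq2 called neither (0.0599 and 0.133). For mt-Rnr2 the highest control exceeded the lowest knockout library, and for both genes Adipoq-F2-KO 4 was far above the other 3. Without that library the log2 fold changes were near 1, at 0.99 for mt-Rnr1 and 0.91 for mt-Rnr2. The log2 ratio of mt-Rnr2 to mt-Rnr1 counts was 0.54, 0.46 and 0.06 in the controls and 0.34, 0.52, 0.05 and 0.44 in Adipoq-F2-KO. It was lowest in library 3 of each genotype, and the genotypes overlapped, with means of 0.35 ± 0.26 and 0.34 ± 0.21 (SD). The base A makes up 37.8% of mt-Rnr1 and 38.2% of mt-Rnr2, within the range of the mRNAs, from 22.2% in mt-Nd6 to 40.7% in mt-Atp8. Their longest runs of A, 5 bases in mt-Rnr1 and 7 in mt-Rnr2, against 8 in mt-Nd2, are shown in capitals with 25 bases on each side, counted from the gene's first base. The genes lie at MT:70-1024 and MT:1094-2675 on the plus strand.
mt-Rnr1, bases 611 to 665: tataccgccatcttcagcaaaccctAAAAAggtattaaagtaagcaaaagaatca
mt-Rnr2, bases 370 to 426: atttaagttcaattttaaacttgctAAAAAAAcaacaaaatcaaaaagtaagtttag

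Mitochondrial rRNA and another abundant transcript were highest and lowest in the same libraries of each genotype. The most abundant identifier of the table, ENSMUSG00000119584 on chromosome 17 (17:40157244-40159092 in the deposited coordinates), had no symbol in the reference tables. It held 1.90%, 3.13% and 0.619% of counts in FFA2 fl/fl, compared with 2.40%, 3.75%, 0.882% and 6.76% in Adipoq-F2-KO, and the genotypes overlapped. Within the controls, FFA2 fl/fl 2 was highest and FFA2 fl/fl 3 lowest both for this identifier and for mitochondrial rRNA. Within Adipoq-F2-KO, library 4 was highest and library 3 lowest for both. Lars2, the nuclear gene of the mitochondrial leucyl-tRNA synthetase, varied in the same order as that identifier, at 710, 1065 and 253 CPM in FFA2 fl/fl and 922, 1397, 315 and 2057 in the knockout. Iars2, the next highest of the mitochondrial aminoacyl-tRNA synthetase genes, had 109 to 138 CPM in the 7 libraries. Which RNA the counts of the identifier and of Lars2 come from was not tested. The part of their variation in the rRNA difference was not tested either.

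**Figure D3:**
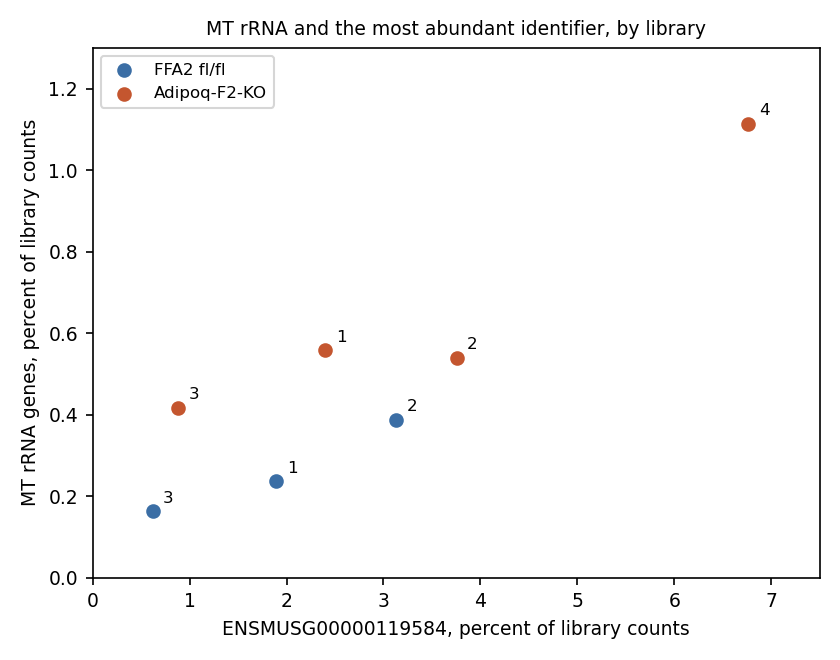
Share of counts in the 2 MT rRNA genes (vertical axis, percent) against the share of ENSMUSG00000119584 (horizontal axis, percent), 1 point per library, numbered within genotype. The orders of the libraries match within FFA2 fl/fl, while within Adipoq-F2-KO libraries 1 and 2 change places, and the 4 Adipoq-F2-KO points lie between 0.418% and 1.11% rRNA.

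Of the 22 tRNA genes, which lie on the plus strand in 14 cases and on the minus strand in 8, only mt-Tp and mt-Ts1 had enough counts to be tested. Among the other 20, 10 had no count in any library, and no gene exceeded 19 counts in one. A count of 0 allows up to 0.150 to 0.197 CPM per library. Mature tRNAs carry no poly-A tail and are shorter than the fragments usually sequenced, so these counts are not tRNA levels. mt-Tp, the proline tRNA gene at MT:15356-15422 on the minus strand, stood apart with 94.8, 108 and 113 CPM in the controls and 140, 140, 171 and 184 in Adipoq-F2-KO. It held 33502 of the counts in all libraries, whereas mt-Te, the next, held 63. The log2 fold change of mt-Tp was 0.59 ± 0.12 (adjusted p = 0.0475 by edgeR). mt-Ts1, a serine tRNA gene at MT:6870-6938 on the minus strand, had 1, 1 and 2 counts in FFA2 fl/fl, compared with 8, 9, 10 and 14 in Adipoq-F2-KO. Since it reached the count filter only through the knockout libraries, these counts are given as a description, and it did not pass the test (adjusted p = 0.159 by edgeR). mt-Ts1 shares 3 bases with the end of mt-Co1, on the other strand. The sequences of both genes, read along the minus strand, are shown because they were the tRNA genes above the count filter.
mt-Tp: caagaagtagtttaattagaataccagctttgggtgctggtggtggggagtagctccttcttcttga
mt-Ts1: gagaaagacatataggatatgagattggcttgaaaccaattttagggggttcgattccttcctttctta

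Levels per length differed widely among the mRNAs of the plus strand, although these are cut from the same long RNA. In normalized CPM per kilobase, mt-Cytb stood at 10750 in FFA2 fl/fl and 18226 in the knockout, and mt-Co1 at 9028 and 14717. mt-Nd1, mt-Nd5, mt-Nd2 and mt-Nd4 followed, between 3008 and 4180 in FFA2 fl/fl. A second set was far lower in both genotypes. In FFA2 fl/fl the level of mt-Co1 was 15.9 times that of mt-Co2, 30.3 times that of mt-Co3, 35.7 times that of mt-Atp6, 42.3 times that of mt-Nd4l, 165 times that of mt-Nd3 and 182 times that of mt-Atp8.

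**Figure D4:**
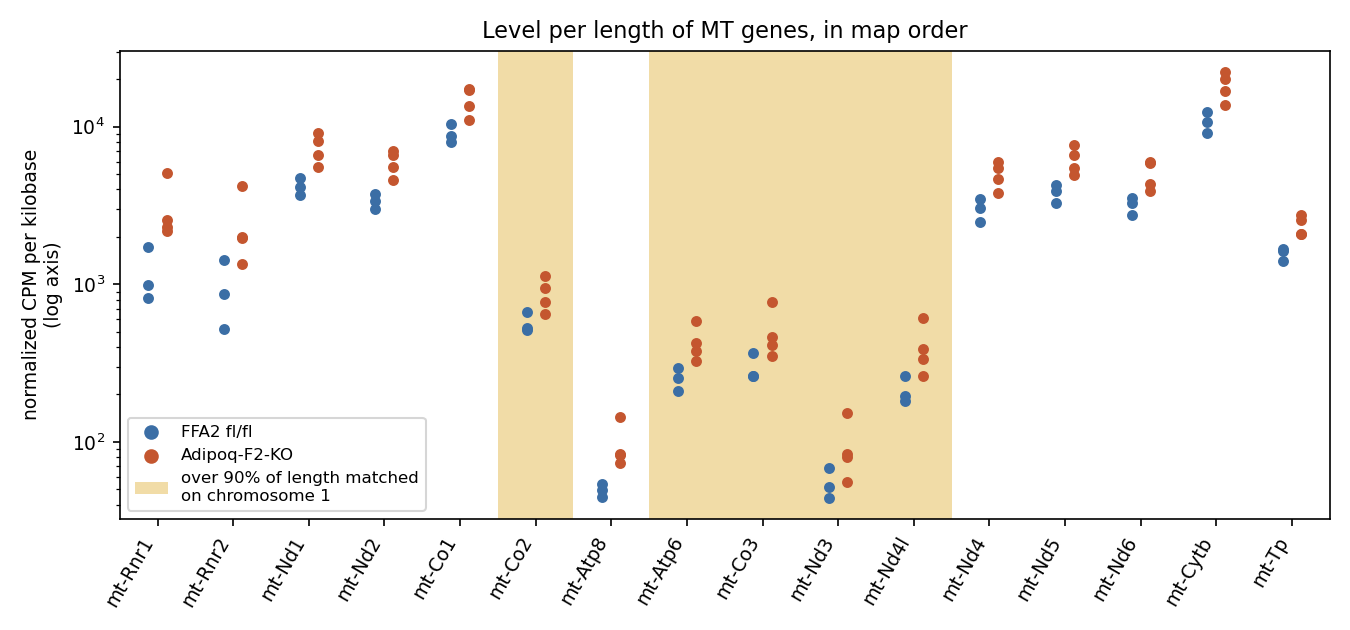
Level per length (normalized CPM per kilobase, log axis) of 16 tested MT genes in map order, for each FFA2 fl/fl library (blue) and each Adipoq-F2-KO library (orange); mt-Ts1, with 45 counts in all, is left out. Shading marks genes with over 90% of their length matched by annotated transcripts of chromosome 1 at 98% identity or more. These lie below their unshaded neighbours other than mt-Atp8, for which the stretch between the annotated copies was not searched.

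Most of the low genes had near-identical annotated copies in the nucleus. Of the transcripts encoded outside the mitochondrion, those on chromosome 1 matched 99.6% of mt-Co2, 99.6% of mt-Atp6, 99.9% of mt-Co3, 99.1% of mt-Nd3 and 99.0% of mt-Nd4l at 98% identity or more. At that threshold the matched length was 63.6% of mt-Nd4, 31.3% of mt-Co1 and 21.1% of mt-Atp8. It was 0% of mt-Nd1, mt-Nd2, mt-Nd5, mt-Nd6, mt-Cytb and the rRNAs. Below it, the best nuclear match was 96.7% identical over 510 bases for mt-Nd2 and 95.2% over 954 for mt-Nd5. For mt-Nd6 it was 93.6% over 519, for mt-Cytb 92.9% over 1142 and for mt-Rnr2 88.4% over 439. None was found for mt-Nd1 and mt-Rnr1. Gm13340 on chromosome 2 matched mt-Co1 at 97.6% over 1545 bases. The 7 predicted genes that hold the matches on chromosome 1 lie side by side on its minus strand (1:24650616-24655278 in the deposited coordinates). Only annotated transcripts were searched, so the stretches between these genes were not. One such stretch separates Gm28661 and Gm10925, the copies of mt-Co2 and mt-Atp6, and mt-Atp8 lies between these 2 mitochondrial genes. The matched length of mt-Atp8 may therefore be too low. Gm28661, Gm10925, Gm28437, Gm10222 and Gm28439 were identical to mt-Co2, mt-Atp6, mt-Co3, mt-Nd4l and mt-Nd4 along all of their 681, 678, 783, 294 and 876 aligned bases. A fragment from such a stretch fits both places, and counts of these genes are uncertain. How reads with several places were treated is not given in the sources used here, and its part in the low levels was not tested.

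The copies of mt-Nd3 and mt-Co1 differ by a few bases and show what would be needed to place a read. Gm28438 matched mt-Nd3 (MT:9459-9806, plus strand) at 344 of 345 bases. The exception was T3C, where positions count from the first base of the mitochondrial gene and its base comes first. It is capitalised in the first 150 bases of both, the length of a read, from GENCODE M21, and the bases after these are identical as far as the copy goes.
mt-Nd3: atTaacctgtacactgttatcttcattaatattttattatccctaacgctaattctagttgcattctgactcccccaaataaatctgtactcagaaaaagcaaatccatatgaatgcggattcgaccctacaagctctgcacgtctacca
Gm28438: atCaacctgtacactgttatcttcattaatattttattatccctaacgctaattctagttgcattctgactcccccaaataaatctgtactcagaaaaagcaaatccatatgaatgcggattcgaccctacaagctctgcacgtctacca

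Gm29216 matched the end of mt-Co1 (MT:5328-6872, plus strand) at 486 of 492 bases. Its 6 substitutions, T1056A, C1057T, A1059G, A1060G, C1062A and A1066T, all fell within the first 13 bases of the match. The first 60 bases of the match are shown for both, with the differing bases in capitals, and the rest of the match is identical.
mt-Co1, bases 1054 to 1113: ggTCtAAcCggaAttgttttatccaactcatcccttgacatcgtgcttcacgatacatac
Gm29216, bases 1 to 60: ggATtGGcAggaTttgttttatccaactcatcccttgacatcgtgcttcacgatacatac

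The counts of the copies were set against those of their mitochondrial partners. Gm28661 had 23.7% to 28.9% of the counts of mt-Co2 across the 7 libraries, and Gm10925 had 34.1% to 42.8% of those of mt-Atp6. The range was 20.8% to 27.5% for Gm28437 and mt-Co3, 18.9% to 32.1% for Gm28438 and mt-Nd3, the widest of the 7 pairs, and 20.5% to 26.7% for Gm10222 and mt-Nd4l. It was far lower for the partly matched pairs, at 0.966% to 1.25% for Gm28439 and mt-Nd4 and 0.595% to 0.669% for Gm29216 and mt-Co1. All 7 copies had a positive log2 fold change, from 0.63 for Gm29216 to 1.10 for Gm10222, against 50.4% of all tested genes. Of the 7 copies, 1 was called by edgeR, against 1.02% of all tested genes. The one that passed was Gm28438, with 129, 179 and 140 counts in the controls and 324, 204, 365 and 254 in Adipoq-F2-KO and a log2 fold change of 1.04 ± 0.21 (adjusted p = 0.0464 by edgeR), and it did not pass when any 1 of the 7 libraries was left out (adjusted p = 0.0570 to 0.227). When the counts of the copies were added to their mitochondrial genes, an alternative chosen after seeing the data, the 7 genes that gained counts had log2 fold changes from 0.64 for mt-Co2 to 0.94 for mt-Nd4l, and none of them was called (adjusted p = 0.0577 to 0.141 by edgeR), where 1.01% of all genes were.

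In 6 of 7 lists of nuclear genes that work with the mitochondrial genome, most log2 fold changes were below 0, the exception being the regulators of biogenesis. None of 81 nuclear OXPHOS subunit genes was called by edgeR, 14 had a log2 fold change above 0 and 67 below, and the median was -0.11, against 0.0037 for all tested genes. At an unadjusted p under 0.05, 6 of them were lower and 0 higher, where 7.37% of all tested genes were lower and 10.5% higher, so that the share lower (6 of 81) was near the background and the share higher was below it. Ndufs7, a core subunit of complex I, had the smallest p, with 70.5, 65.6 and 71.3 CPM in FFA2 fl/fl, compared with 54.9, 55.7, 60.1 and 54.0 in Adipoq-F2-KO, a log2 fold change of -0.30 ± 0.085 and an adjusted p of 0.111. By complex, the median was -0.14 over 37 genes of complex I, -0.20 over 4 of complex II, which has no mitochondrial gene, -0.05 over 9 of complex III, -0.03 over 16 of complex IV and -0.06 over 15 of complex V. Libraries did not overlap, with Adipoq-F2-KO lower, for 19 of the 81, against 8.72% of all tested genes.

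The balance between the 2 genomes therefore differed between genotypes. There were 3.83, 5.48 and 4.58 mitochondrial protein-coding counts per nuclear OXPHOS count in FFA2 fl/fl and 7.40, 6.60, 8.98 and 10.9 in the knockout. The means were 4.63 ± 0.826 (SD, n = 3) and 8.46 ± 1.88 (SD, n = 4), without overlap, and this ratio is independent of the library totals. The share of counts in nuclear OXPHOS genes alone overlapped, at 1.09%, 0.980% and 1.05% in FFA2 fl/fl and 0.980%, 0.917%, 0.981% and 0.842% in Adipoq-F2-KO.

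Genes for the upkeep and expression of the mitochondrial genome were counted in the same way. Of 22 tested genes for its replication and maintenance, 17 had a log2 fold change below 0 and none was called, while 6 were lower at an unadjusted p under 0.05, against 7.37% of all tested genes, and 5 were lower without overlap, against 8.72%. The smallest p was that of Polg, the catalytic subunit of the mitochondrial DNA polymerase, with 63.0, 64.1 and 68.8 CPM in the controls and 58.5, 52.7, 54.6 and 50.7 in Adipoq-F2-KO (log2 fold change -0.27, adjusted p = 0.154 by edgeR). Of 11 transcription genes, 9 were below 0 and none was called, with 2 lower at an unadjusted p under 0.05. Polrmt, the RNA polymerase of the organelle, had 26.1, 24.9 and 26.8 CPM against 24.7, 17.7, 17.8 and 15.8 (log2 fold change -0.45, adjusted p = 0.156). The genotypes did not overlap for either polymerase, while Tfam, the factor that packages mitochondrial DNA and starts its transcription, had a log2 fold change of 0.04. Of 31 genes for RNA processing and stability, 22 had a log2 fold change below 0 and 1 was called, against 1.02% of all tested genes. This was Pde12, a nuclease that removes A residues from mitochondrial RNA, with 23.2, 27.2 and 22 CPM in FFA2 fl/fl, compared with 32.7, 36.2, 36.2 and 39.4 in Adipoq-F2-KO, a log2 fold change of 0.58 ± 0.11 and an adjusted p of 0.0418. Its knockout libraries all lay above the controls, but when single libraries were left out it passed only without Adipoq-F2-KO 1, with adjusted p-values of 0.0453 to 0.227.

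Translation genes had similar counts. Of 81 mitochondrial ribosomal protein genes, 73 had a log2 fold change below 0, with a median of -0.17 and no call, although 14 were lower and 0 higher at an unadjusted p under 0.05, against 7.37% of all tested genes lower and 10.5% higher. The list of mitochondrial aminoacyl-tRNA synthetases held 23 tested genes, among them Qrsl1, Gatb, Gatc and Mtfmt, which are not synthetases themselves. Of the 23, 18 were below 0, with a median of -0.23 and no call. At an unadjusted p under 0.05, 10 were lower, against 7.37% of all tested genes. For 10 of the 23 every Adipoq-F2-KO library was below every control, against 8.72%. Their summed CPM overlapped between genotypes, at 1321, 1649 and 857 in FFA2 fl/fl and 1462, 1909, 827 and 2540 in Adipoq-F2-KO. Without Lars2, a member singled out after its values were seen, it was 612, 584 and 605 in FFA2 fl/fl. In the knockout it was then 540, 513, 512 and 483, with no overlap. Of 15 regulators of mitochondrial biogenesis, 8 were above 0 and none was called, while 3 were higher at an unadjusted p under 0.05, against 10.5% of all tested genes. The nearest was Pprc1, a coactivator related to PGC-1, with 31.5, 34.6 and 38.9 CPM against 51.2, 65.9, 48.4 and 84.8 (log2 fold change 0.84 ± 0.18, adjusted p = 0.0540). Ppargc1a, which encodes PGC-1alpha, had a log2 fold change of 0.02.

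**Figure D5:**
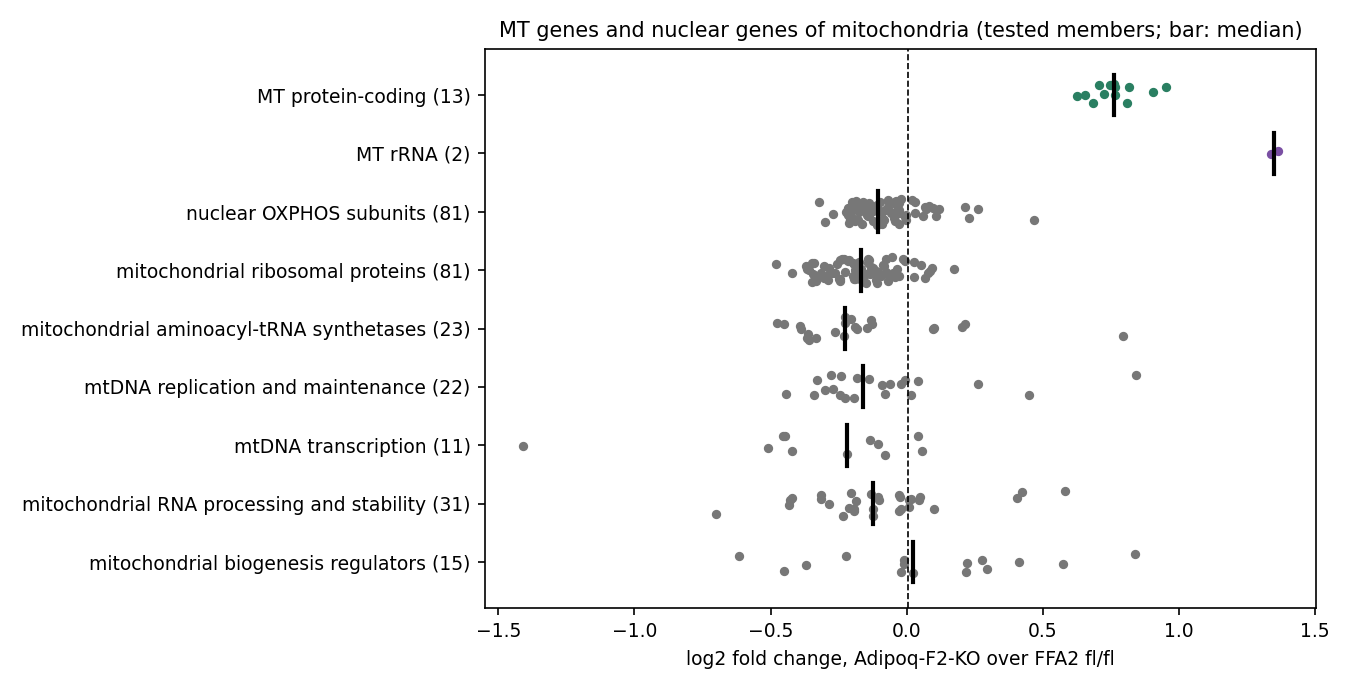
Log2 fold change (Adipoq-F2-KO over FFA2 fl/fl) of the tested genes of each class or list, 1 point per gene, with black bars at the medians, the number of genes in brackets and a dashed line at the median of all tested genes. The MT protein-coding and rRNA genes lie above 0.6, whereas the medians of 6 of the 7 nuclear lists lie below the dashed line. The list labelled as synthetases also holds Qrsl1, Gatb, Gatc and Mtfmt.

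Most tested markers of macrophages, endothelial cells and fibroblast progenitors had log2 fold changes above 0, but in all marker lists only 3 genes, all macrophage markers, were called. Adipocyte markers summed to 61154 to 67228 CPM in the controls and 46997 to 60787 in Adipoq-F2-KO, and 14 of 15 had a log2 fold change below 0, none called, with 7 lower at an unadjusted p under 0.05, against 7.37% of all tested genes. Macrophage markers summed to 800 to 911 CPM against 1002 to 1188, with 16 of 18 above 0 and 3 called higher (Cd68, Lyz2 and Clec4e), against 0.798% of all tested genes. At an unadjusted p under 0.05, 12 of the 18 were higher, against 10.5% of all tested genes, as were 10 of 12 endothelial and 7 of 12 fibroblast progenitor markers. None of the 3 called genes passed without FFA2 fl/fl 1, FFA2 fl/fl 3 or Adipoq-F2-KO 3. Endothelial markers summed to 1391 to 1809 CPM against 1889 to 2991, with 12 of 12 above 0 and none called. Fibroblast progenitor markers summed to 927 to 1224 against 1321 to 1613, with 11 of 12 above 0 and none called, where 50.4% of all tested genes were above 0. In none of these lists was a marker at 0 in all libraries. Of 6 tested brown fat markers, 3 were above 0 and none was called. Kcnk3 alone had 25.7 to 49.4 CPM in the controls and 13.9 to 29.6 in the knockout, and the others of the list of 8 summed to 6.75 to 10.5 CPM in the controls and 7.65 to 15.9 in Adipoq-F2-KO. Of 16 genes induced by tissue dissociation, 9 were above 0 and none was called, with a median of 0.02. Of 5 tested erythroid markers all were above 0 and none was called. At an unadjusted p under 0.05, 2 of the 16 and 2 of the 5 were higher, against 10.5% of all tested genes. Of 6 mesothelial markers, 3 were above 0 and none was called. Of 12 germ cell markers, Odf2 had 42.4 to 48.3 CPM in the controls and 45.0 to 68.1 in Adipoq-F2-KO. The other 11 summed to 0.527 to 5.49 CPM in the controls and to 4.44, 16.9 and 6.11 in Adipoq-F2-KO 1, 3 and 4, but to 182 in Adipoq-F2-KO 2, which was the knockout library with the lowest mitochondrial share. Without that library the difference in the mitochondrial share was 4.06 percentage points, against 3.43 with it, a rise that follows from leaving out the lowest knockout value. The part of these other cells in the mitochondrial difference was not tested.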

How the data were processed

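The deposited table holds raw counts per gene. Per the methods and labels, the authors used Trimmomatic for trimming, STAR for alignment and featureCounts for counting. Versions and options are not given in the sources used here. The processing notes name GRCm38 and mm10. All 37 MT genes have the coordinates of GENCODE M21 (GRCm38), but only 1409 of 51992 nuclear genes do, so nuclear positions are given as deposited. From 85.5% to 88.8% of low counts were even, so a fragment appears to add 2 counts, and the limit of a 0 was taken as 6 counts. That limit covers counting error only.

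Genes passing filterByExpr (17039) were tested with edgeR 4.0.16 (quasi-likelihood, TMM factors from 0.968 to 1.02, genotype only), with Benjamini-Hochberg adjustment and a threshold of 0.05. Normalized CPM uses the TMM factors. SE is the absolute log2 fold change over the square root of F. DESeq2 1.42.0, limma 3.58.1 (voom), other scalings, filters and left-out libraries were alternatives. MT transcripts were searched against 141730 other GENCODE M21 transcripts with blastn 2.17.0.

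The set of MT genes, although its rule uses no measured value, and the nuclear and marker lists were chosen with earlier results of these data known. From each nuclear list, the called genes were named, otherwise those with the smallest p. Gm10222 was added to the chromosome 1 copies, and ENSMUSG00000119584, Lars2, Iars2, Tfam, Ppargc1a, Odf2 and Kcnk3 were named, after their values were seen.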

Additional observations from a re-analysis of the deposited data

Results flagged for a closer look

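Among the 4 Adipoq-F2-KO libraries, 2 of 38 quantities checked had a single library far from the others. The normalized CPM of mt-Rnr1 was 4889 in Adipoq-F2-KO 4, and its gap to the next library was 0.865 of the group's range. The normalized CPM of mt-Atp8 was 29.2 in the same library, with a gap of 0.852 of the range. Both gaps exceed Dixon's 95% critical value for 4 samples, and chance gives about 1 such group in 20. Adipoq-F2-KO 4 also had the highest share of ENSMUSG00000119584.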

How the results depend on the processing

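The 16 tested mitochondrial genes other than mt-Ts1 had a log2 fold change above 0 in each of the 17 alternatives. Among these, the fit without Adipoq-F2-KO 4 is the same as that on libraries 1 to 3 of each genotype without a replicate block. The difference in rRNA share fell by more than the control SD without Adipoq-F2-KO 4. The difference in the log2 ratio of protein-coding to rRNA counts moved by less than the spread between libraries. The counts of calls moved with the method. The mitochondrial genes called, 3 by edgeR with all libraries, were 11 with DESeq2, 7 with limma voom, 16 with all genes of at least 1 count, and 0 to 3 when 1 library was left out. The calls over all genes, 173 in the main analysis, were 992 with DESeq2 (6.75%), 1403 with all genes of at least 1 count (4.92%), and 1 to 178 when 1 library was left out. In the 7 nuclear mitochondrial lists, 1 gene was called, but 8 with DESeq2, 2 with library totals alone, 10 with all genes of at least 1 count, 2 with counts halved and 0 to 3 when 1 library was left out. The cause was not tested.

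The replicate numbers were not taken as pairs, since same-numbered libraries deviated together with correlations of 0.031, -0.024 and -0.020. With the replicate block, fitted on libraries 1 to 3 of each genotype, 6 mitochondrial genes were called, mt-Rnr1 and mt-Rnr2 among them (adjusted p = 0.0291 and 0.0190 by edgeR), against 3 on the same libraries without it, and 223 against 166 over all genes. No tRNA gene other than mt-Tp had more than 19 counts in a library. Differences in single genes among these were not resolved at such counts. Summed, they had 14, 11 and 17 raw counts in FFA2 fl/fl and 25, 18, 41 and 43 in Adipoq-F2-KO. These sums did not overlap, but they include mt-Ts1, which passed the count filter only through its knockout libraries.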
